A study of Rattus norvegicus with 7 samples.

Results

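The 37 genes described here are genes that interferon induces and the RNA sensors and transcription factors that work with them: interferon regulatory factors and Stat2, cytosolic and endosomal RNA sensors, oligoadenylate synthetases, Mx, Ifit and other antiviral effectors, the ISG15 system with the Parp9, Parp14 and Dtx3l proteins, and antigen processing genes. They were chosen by symbol from a list of known members of this response, but with earlier results of these data known. The libraries compared were also chosen with those results known, so the counts below are a description and no independent check. Of the 37, 35 were among the 17141 genes of the expression table, and 23 of those 35 had a mean of at least 1 RPKM (reads per kilobase of gene, scaled to the library's size) over the libraries. Zbp1 and Xaf1 were matched to no row and are not analysed here. The other 12 listed members averaged under 1 RPKM. These were Dhx58, Tlr3, Oasl, Oasl2, Mx1, Ifit3, Rsad2, Cmpk2, Bst2, Rtp4, Psmb8 and Psmb9.

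In this pathway, double-stranded or unusual RNA is bound by the sensors RIG-I and MDA5 in the cytosol or by TLR3 in endosomes, and the signal switches on type I interferon through IRF3 and IRF7. Interferon then acts through its receptor and a complex that holds STAT2 and IRF9 on a promoter sequence called the interferon-stimulated response element, which many of these genes carry, and it raises the sensors and IRF7 themselves. In cultured heart cells the response is known from viral infection and from transfected RNA, and a low level of these transcripts is present without infection.

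The study asked which pathways are shared by miRNAs that make heart muscle cells divide. Ventricular cardiomyocytes of wild type Wistar rats at postnatal day 0 were cleared of quickly attaching cells on plastic, kept in medium with 5% serum, transfected with a synthetic miRNA at 25 nM with Lipofectamine RNAiMAX and lysed 72 h after transfection for sequencing of mRNA. The miRNAs were miR-199a-3p, miR-373-3p, miR-590-3p, miR-1825, miR-33b* and miR-302d-3p, and cel-miR-67, a nematode miRNA that is the denominator of the deposited ratios. Each miRNA has 1 library, so differences have no replicate check, no p-value is given, and every value below describes these 7 libraries. Untransfected cells were not analysed here, and whether any of the 7 transfections itself raised these genes was not tested.

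From 22616067 to 31963293 reads a library fell on genes of the table. They made 85.5% of the library size behind the RPKM values in miR-199a-3p, 95.8% in miR-373-3p, 92.1% to 108% in the other miRNA libraries and 110% in cel-miR-67, so this size is not the sum of the listed reads, and how it was set is not given in the sources. A scaling to the RPKM total raises the miR-199a-3p values most. Mitochondrial transcripts held 27.7% of them in the miR-199a-3p library, 30.6% to 41.4% in the other miRNA libraries and 41.0% in cel-miR-67. The 8 cardiomyocyte markers examined, among them Actc1 and Tnnt2, were all detected, and their RPKM summed to between 10360 and 12560 in the 6 miRNA libraries and to 12880 in the cel-miR-67 library.

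The promoters of the members show what they share in sequence. The search used 300 bases around each gene start (250 before, 50 after) from RefSeq on GRCr8, on both strands, and overlapping matches were counted. A match to the interferon-stimulated response element was GAAA, 2 bases of any kind and GAAA, or on the other strand TTTC, 2 bases and TTTC. A promoter entry was found for 27 of the 35 listed members, and 16 of these 27 (59.3%) held such a match, against 3.92% of all 33469 promoters of that length. A stricter form, with a C after the last GAAA, was present in 12 of the 27 (44.4%), against 0.881% of all promoters. The gamma-activated sequence, TTC, 3 bases of any kind and GAA, was present in 7 (25.9%), against 8.87%, and 5 promoters held both kinds, in 1 of them with starts less than 10 bases apart. A match is a description of the letters and not a bound site. Ddx58, Dhx58, Adar, Mx2, Ifit2, Rtp4, Isg15 and Usp18 are named only. The 30-base stretches that follow, 5′ to 3′ on the gene's strand with the match in capitals, are those of 4 members that differed 2-fold or more between libraries and of 2 sensors that differed less.
Irf7: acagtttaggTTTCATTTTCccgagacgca
Oas1a: cccctctcggGAAATGGAAACTGAAAatct
Gbp2: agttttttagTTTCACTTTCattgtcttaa
Dtx3l: cccgggaaacGAAACTGAAActttgcctct
Ifih1: gaagagaatcGAAACAGAAAccgatgtgtg
Eif2ak2: agtccgccggGAAAACGAAAcagagagaac
The stretch of Irf7 lies at chr1:205800073-205800102, minus strand, with the match 69 bases before the start. The stretch of Oas1a is at chr12:41330415-41330444, plus strand, and its 2 matches overlap. The stretch of Gbp2 is at chr2:234005686-234005715, plus strand, and that of Dtx3l is at chr11:78320225-78320254, plus strand, where the match lies 10 bases after the start. Ifih1 is at chr3:67684008-67684037, minus strand, and Eif2ak2 is at chr6:21941128-21941157, plus strand, 16 bases before the start. Ifi44 and Ifi27 each held 2 separate matches, so their whole 300-base promoters are shown.
Ifi44: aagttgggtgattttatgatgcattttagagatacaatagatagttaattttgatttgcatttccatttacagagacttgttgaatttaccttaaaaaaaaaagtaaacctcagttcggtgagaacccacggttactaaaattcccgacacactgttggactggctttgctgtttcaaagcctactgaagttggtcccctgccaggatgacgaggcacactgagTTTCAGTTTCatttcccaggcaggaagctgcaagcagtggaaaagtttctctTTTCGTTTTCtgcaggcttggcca
Ifi27: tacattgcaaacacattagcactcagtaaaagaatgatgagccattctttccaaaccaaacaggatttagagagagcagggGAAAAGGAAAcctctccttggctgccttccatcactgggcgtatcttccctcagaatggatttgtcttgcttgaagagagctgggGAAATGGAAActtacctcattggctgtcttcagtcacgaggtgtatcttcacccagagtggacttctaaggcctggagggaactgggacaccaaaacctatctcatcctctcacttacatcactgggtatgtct
The Ifi44 promoter lies at chr2:243303791-243304090, minus strand, and the Ifi27 promoter at chr6:128355062-128355361, plus strand. Of the transfected miRNAs, the rat entry of miR-199a-3p (chr13:77116294-77116315, plus strand, GRCr8) is shown with its seed, bases 2 to 8, in capitals, since that library held the lowest level of 13 of the 23 members over 1 RPKM.
rno-miR-199a-3p: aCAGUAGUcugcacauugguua
The miRNAs miR-373-3p, miR-302d-3p, miR-590-3p, miR-1825, miR-33b* and cel-miR-67 are named only. The miRNAs miR-373-3p and miR-302d-3p belong to the same seed family.

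Relative to the cel-miR-67 library, the members were lower in the miR-199a-3p and miR-373-3p libraries, and nearer to it in that of miR-302d-3p. Changes are given as log2 of (RPKM + 1) in a miRNA library over (RPKM + 1) in the cel-miR-67 library, which understates differences of low genes. In the miR-199a-3p library 8 of the 23 members over 1 RPKM were at least 2-fold lower, where 1.52% of all 12330 genes over 1 RPKM were. In the miR-373-3p library 6 of 23 were, against 1.87% of all genes. With libraries scaled to the same RPKM total these counts were 3 and 3, and with the mean of the other 5 miRNA libraries in place of cel-miR-67 they were 2 and 0. The shares of all genes under these settings are not given here. That scaling put the median of all genes at 0.44 in miR-199a-3p and 0.23 in miR-373-3p. The miR-302d-3p library had 2 of 23 (2.11% of all genes), and these were Irf7 and Ifit2. The miR-1825 library also had 2 (1.63%), Ifi27 and Usp18. No member over 1 RPKM was 2-fold lower in the libraries of miR-590-3p (0.762% of all genes) and miR-33b* (1.24%), and none was 2-fold higher in any of the 6 libraries, where 1.04% (miR-199a-3p), 1.15% (miR-373-3p), 1.51% (miR-590-3p), 2.00% (miR-1825), 1.30% (miR-33b*) and 1.31% (miR-302d-3p) of all genes were, and 4.36% in at least 1. The members 2-fold lower in at least 1 library were 12 of the 23, against 5.44% of all genes. In bulk RNA, fewer cells that express a gene and less RNA per cell cannot be told apart.

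The median change of the 23 members was -0.62 in the miR-199a-3p library, -0.67 in miR-373-3p, -0.28 in miR-590-3p, -0.34 in miR-1825, -0.20 in miR-33b* and -0.18 in miR-302d-3p, beside medians of all genes between -0.003 and 0.015. Over all 35 listed members the medians were -0.48, -0.36, -0.18, -0.23, -0.13 and -0.18 in the same order. Members below the cel-miR-67 level numbered 22 of 23 in the miR-199a-3p library (50.3% of all genes), 21 in miR-373-3p (49.1%), 21 in miR-590-3p (50.2%), 19 in miR-1825 (49.5%), 17 in miR-33b* (50.5%) and 16 in miR-302d-3p (48.0%). Of the 23, 13 were below it in all 6 libraries (13.4% of all genes), and of the 35 listed, 16 were (14.5% of all genes in the table). All 6 comparisons share the cel-miR-67 library. The same 13 of the 23 members had their highest level of the 7 libraries there, which is the same observation in other words. The miR-199a-3p library held the lowest level of 13 members (18.0% of all genes) and the miR-373-3p library that of 5 (10.3%), while miR-302d-3p held the highest level of 5 (17.4%).

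These medians depend on what they are set against. With the mean of the other 5 miRNA libraries in place of cel-miR-67 they stayed below 0 in miR-199a-3p (-0.37) and miR-373-3p (-0.30), and were above 0 in miR-590-3p (0.14), miR-33b* (0.18) and miR-302d-3p (0.12) and near 0 in miR-1825. When every library was scaled to the same RPKM total, which moved the median of all genes by 0.44 in the miR-199a-3p library, 0.23 in miR-373-3p and 0.31 in miR-302d-3p, the members' medians became -0.21, -0.47 and 0.11.

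**Figure D1:**
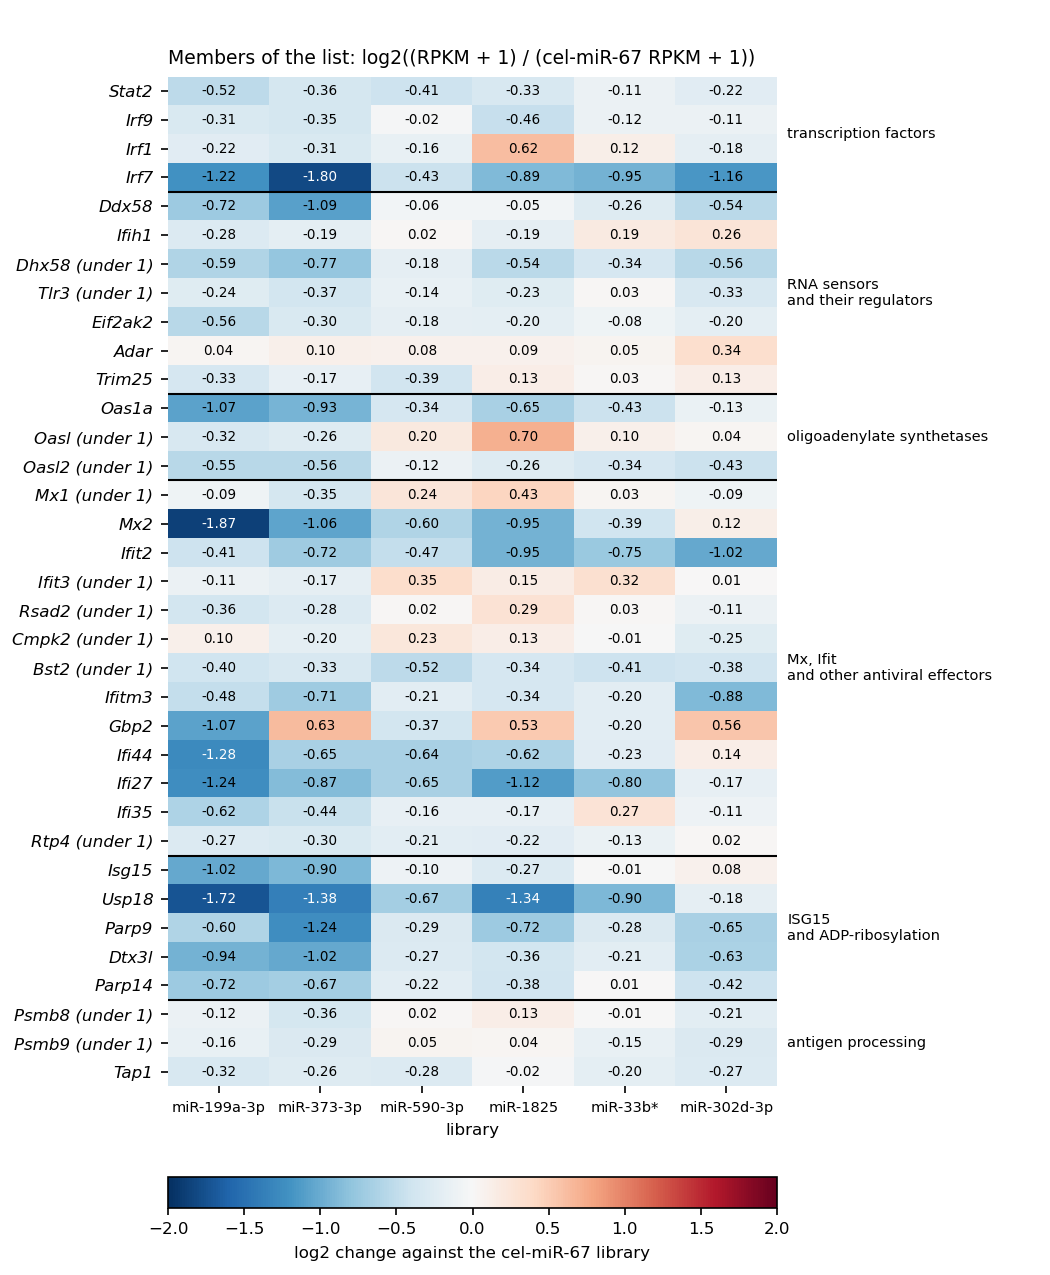
Change of each of the 35 listed members (rows, grouped by role) in the 6 miRNA libraries (columns), as log2 of (RPKM + 1) over the cel-miR-67 RPKM + 1; blue is lower and red higher than the cel-miR-67 library, and "under 1" marks members with a mean under 1 RPKM. The darkest cells are Mx2 and Usp18 in miR-199a-3p (-1.87 and -1.72) and Irf7 in miR-373-3p (-1.80).

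**Figure D2:**
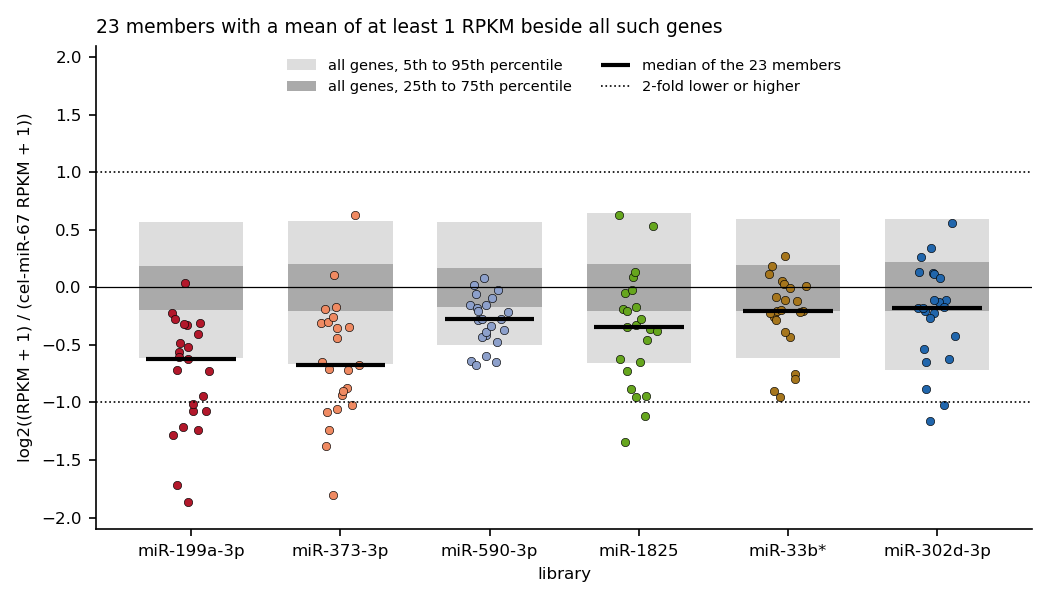
Change against the cel-miR-67 library (y axis, log2) of the 23 members with a mean of at least 1 RPKM (points) in each miRNA library, with their median (black bar) over the range of all 12330 such genes (grey). The members' medians lie at -0.62 in miR-199a-3p and -0.67 in miR-373-3p; those of miR-590-3p, miR-33b* and miR-302d-3p turn above 0 when the mean of the other miRNA libraries is the denominator.

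Among the transcription factors, Irf7, which drives type I interferon genes, stood apart from the other 3. Irf7 was at 4.20 RPKM in the miR-199a-3p library, 2.46 in miR-373-3p, 7.95 in miR-590-3p, 5.52 in miR-1825, 5.24 in miR-33b*, 4.40 in miR-302d-3p and 11.1 in cel-miR-67. All 6 miRNA libraries were below cel-miR-67, and miR-373-3p was the lowest. Its log2 change was -1.80 in miR-373-3p, -1.22 in miR-199a-3p and -1.16 in miR-302d-3p. Its ratio of read rates was 0.223 in miR-373-3p (exact 95% interval 0.184 to 0.268, 149 against 495 reads), an interval that covers counting error only and compares 2 libraries. Irf9, the DNA-binding partner of STAT2, ranged from 8.67 to 12.1 RPKM in the 6 miRNA libraries beside 12.3 in cel-miR-67, and Stat2 from 2.73 to 3.96 beside 4.35. Irf1, a factor induced by interferon gamma, was at 4.77 RPKM in miR-199a-3p, 4.44 in miR-373-3p, 5.04 in miR-590-3p, 9.37 in miR-1825, 6.31 in miR-33b*, 4.95 in miR-302d-3p and 5.73 in cel-miR-67. Its level in the miR-1825 library was above those of the other 6, with a log2 change of 0.62 that was the highest of the 23 members there.

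Among the RNA sensors and their regulators, Ddx58, which encodes RIG-I, was the one over 1 RPKM that was past 2-fold. Its level was 3.17 RPKM in miR-199a-3p, 2.24 in miR-373-3p, 5.59 in miR-590-3p, 5.64 in miR-1825, 4.74 in miR-33b*, 3.74 in miR-302d-3p and 5.88 in cel-miR-67. The lowest levels were in miR-373-3p, miR-199a-3p and miR-302d-3p, with log2 changes of -1.09, -0.72 and -0.54. In miR-373-3p its ratio of read rates to cel-miR-67 was 0.381 (0.304 to 0.475). Ifih1, which encodes MDA5, ranged from 2.69 RPKM in miR-199a-3p to 4.37 in miR-302d-3p, with 3.47 in cel-miR-67. Eif2ak2, the kinase PKR that is activated by double-stranded RNA, was at 15.4 RPKM in miR-199a-3p and between 18.6 and 21.9 in the other miRNA libraries, beside 23.2 in cel-miR-67. Adar, which edits adenosine to inosine in double-stranded RNA, was the exception among the 23: it was at 16.0 RPKM in miR-199a-3p, 16.7 in miR-373-3p, 16.5 in miR-590-3p, 16.6 in miR-1825, 16.1 in miR-33b*, 19.9 in miR-302d-3p and 15.5 in cel-miR-67. All 6 miRNA libraries lay above cel-miR-67, with log2 changes of 0.04 to 0.34. Trim25, the ubiquitin ligase that acts on RIG-I, ranged from 2.34 to 3.79 RPKM around 3.37 in cel-miR-67. Dhx58, which encodes LGP2, and Tlr3 were low. Dhx58 ranged from 0.335 RPKM in miR-373-3p to 1.01 in miR-590-3p beside 1.27 in cel-miR-67, with a ratio of read rates in miR-373-3p of 0.263 (0.163 to 0.412, 27 against 76 reads). Tlr3 ranged from 0.478 to 0.945 beside 0.911.

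Of the oligoadenylate synthetases, whose product activates RNase L, only Oas1a averaged over 1 RPKM. Oas1a was at 0.458 RPKM in miR-199a-3p, 0.606 in miR-373-3p, 1.42 in miR-590-3p, 0.950 in miR-1825, 1.27 in miR-33b*, 1.80 in miR-302d-3p and 2.06 in cel-miR-67. The miR-199a-3p and miR-373-3p libraries were the lowest and that of miR-302d-3p the nearest to cel-miR-67. On 36 reads against 136, its ratio of read rates was 0.222 in miR-199a-3p (0.149 to 0.322), and in miR-302d-3p it was 0.874 (0.696 to 1.10). Its log2 change was -1.07 in miR-199a-3p, -0.93 in miR-373-3p and -0.13 in miR-302d-3p. The last was 0.10 when libraries were scaled to the same total, where the median of all genes was 0.31. Oas1a has near copies, and reads of Oas1 genes may be split between their rows. Oasl2 ranged from 0.667 to 1.26 RPKM in the 6 miRNA libraries beside 1.46 in cel-miR-67. Oasl, its neighbour on chromosome 12, was at 0.188 RPKM in miR-199a-3p, 0.237 in miR-373-3p, 0.700 in miR-590-3p, 1.41 in miR-1825, 0.584 in miR-33b*, 0.524 in miR-302d-3p and 0.481 in cel-miR-67. The miR-1825 library was the highest, and its ratio of read rates there was 2.93 (1.94 to 4.56, 104 against 30 reads).

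The antiviral effectors held the member with the lowest change in the miR-199a-3p library. Mx2, an interferon-induced GTPase, was at 1.74 RPKM in miR-199a-3p, 3.79 in miR-373-3p, 5.59 in miR-590-3p, 4.16 in miR-1825, 6.61 in miR-33b*, 9.81 in miR-302d-3p and 8.98 in cel-miR-67. The miR-302d-3p library was the highest of the 7, and the miR-199a-3p library the lowest. The log2 change was -1.87 in miR-199a-3p, -1.06 in miR-373-3p and 0.12 in miR-302d-3p, and the ratio of read rates in miR-199a-3p was 0.193 (0.163 to 0.228, 175 against 759 reads). Mx1, the related GTPase, stayed at 0.0984 to 0.890 RPKM in the 6 miRNA libraries and 0.399 in cel-miR-67. It rested on 10 to 79 reads a library.

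Ifi44 and Ifi27 shared their lowest library and, in opposite order, their 2 highest. Ifi44, an interferon-induced cytoplasmic protein, was at 2.55 RPKM in miR-199a-3p, 4.51 in miR-373-3p, 4.52 in miR-590-3p, 4.59 in miR-1825, 6.38 in miR-33b*, 8.47 in miR-302d-3p and 7.62 in cel-miR-67. Ifi27, a small membrane protein and the most abundant member per length, was at 75.5 RPKM in miR-199a-3p, 97.8 in miR-373-3p, 114 in miR-590-3p, 82.2 in miR-1825, 103 in miR-33b*, 159.6 in miR-302d-3p and 179.7 in cel-miR-67. For both genes the miR-199a-3p library was the lowest, and the miR-302d-3p and cel-miR-67 libraries were the highest. In miR-199a-3p the ratio of read rates was 0.335 for Ifi44 (0.290 to 0.386) and 0.420 for Ifi27 (0.398 to 0.442). For Ifi27 the log2 change was -1.24 in miR-199a-3p, -1.12 in miR-1825, -0.87 in miR-373-3p and -0.17 in miR-302d-3p. The last turned to 0.16 with libraries scaled to the same total, where the median of all genes was 0.31.

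Gbp2 and Ifit2 did not have these libraries at both ends. Gbp2, a guanylate-binding GTPase known as a target of interferon gamma, was at 1.01 RPKM in miR-199a-3p, 5.53 in miR-373-3p, 2.28 in miR-590-3p, 5.12 in miR-1825, 2.68 in miR-33b*, 5.24 in miR-302d-3p and 3.24 in cel-miR-67. It was lowest in miR-199a-3p but highest in miR-373-3p, so the 2 libraries with the lowest members on the whole were its 2 extremes. The ratio of read rates to cel-miR-67 was 0.313 in miR-199a-3p (0.233 to 0.416), 1.71 in miR-373-3p (1.43 to 2.05) and 1.62 in miR-302d-3p (1.36 to 1.93). Ifit2, a tetratricopeptide protein, was at 3.87 RPKM in miR-199a-3p, 2.94 in miR-373-3p, 3.66 in miR-590-3p, 2.35 in miR-1825, 2.85 in miR-33b*, 2.19 in miR-302d-3p and 5.47 in cel-miR-67. Here miR-302d-3p was the lowest, with a ratio of read rates of 0.400 (0.341 to 0.468), and miR-199a-3p the highest of the miRNA libraries at 0.707 (0.613 to 0.816).

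The other effectors were within 2-fold of cel-miR-67 on the log2 scale used, which understates differences of those under 1 RPKM. Ifitm3, which blocks viral entry at endosomal membranes, ranged from 19.0 RPKM in miR-302d-3p to 31.0 in miR-33b* beside 35.9 in cel-miR-67, with the lowest log2 change of -0.88 in miR-302d-3p. Ifi35 was at 5.38 RPKM in miR-199a-3p, 6.21 in miR-373-3p, 7.80 in miR-590-3p, 7.74 in miR-1825, 10.8 in miR-33b*, 8.10 in miR-302d-3p and 8.81 in cel-miR-67, and its 0.27 in miR-33b* was the highest log2 change of the 23 members in that library. Bst2, or tetherin, was below its 0.878 RPKM of cel-miR-67 in all 6 miRNA libraries, at 0.314 to 0.499 RPKM on 10 to 20 reads. Rsad2, or viperin, ranged from 0.0605 RPKM in miR-199a-3p (6 reads) to 0.662 in miR-1825 (65 reads), with 0.361 in cel-miR-67 (30 reads), and its ratio of read rates in miR-199a-3p was 0.168 (0.0570 to 0.409). Its neighbour on the opposite strand, Cmpk2, was at 0.404 RPKM in miR-199a-3p, 0.144 in miR-373-3p, 0.533 in miR-590-3p, 0.437 in miR-1825, 0.302 in miR-33b*, 0.105 in miR-302d-3p and 0.310 in cel-miR-67, and it held the highest log2 change of the 35 members in miR-199a-3p, 0.10. Ifit3 was at 0.327 RPKM in miR-199a-3p, 0.272 in miR-373-3p, 0.824 in miR-590-3p, 0.587 in miR-1825, 0.788 in miR-33b*, 0.439 in miR-302d-3p and 0.433 in cel-miR-67. Its log2 changes in miR-590-3p (0.35) and miR-33b* (0.32) were the highest of the 35 members there. Rtp4 ranged from 0.254 to 0.568 RPKM in the 6 miRNA libraries beside 0.549 in cel-miR-67.

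In the ISG15 system, Isg15, the ubiquitin-like modifier, and Usp18, the protease that removes it and restrains the interferon receptor, were lowest in miR-199a-3p. Usp18 was at 2.51 RPKM in miR-199a-3p, 3.47 in miR-373-3p, 6.27 in miR-590-3p, 3.56 in miR-1825, 5.19 in miR-33b*, 9.25 in miR-302d-3p and 10.6 in cel-miR-67. Isg15 was at 1.80 RPKM in miR-199a-3p, 2.04 in miR-373-3p, 4.30 in miR-590-3p, 3.69 in miR-1825, 4.64 in miR-33b*, 5.00 in miR-302d-3p and 4.67 in cel-miR-67. In both genes miR-199a-3p and miR-373-3p were the 2 lowest libraries, and miR-302d-3p was close to cel-miR-67. The ratio of read rates in miR-199a-3p was 0.237 for Usp18 (0.192 to 0.292) and 0.386 for Isg15 (0.282 to 0.523, 64 against 139 reads), and that in miR-302d-3p was 0.874 for Usp18 (0.769 to 0.994) and 1.07 for Isg15 (0.864 to 1.33). Usp18 had a log2 change of -1.72 in miR-199a-3p, -1.38 in miR-373-3p, -1.34 in miR-1825 and -0.18 in miR-302d-3p. The last turned to 0.13 with libraries scaled to the same total, where the median of all genes was 0.31.

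Parp9 and Dtx3l, which form a complex of an ADP-ribosyltransferase and a ubiquitin ligase and whose starts lie 1214 bases apart in opposite directions on chromosome 11, were both lowest in miR-373-3p. Parp9 was at 8.64 RPKM in miR-199a-3p, 5.20 in miR-373-3p, 11.0 in miR-590-3p, 7.86 in miR-1825, 11.0 in miR-33b*, 8.35 in miR-302d-3p and 13.6 in cel-miR-67. Dtx3l was at 3.51 RPKM in miR-199a-3p, 3.27 in miR-373-3p, 6.18 in miR-590-3p, 5.74 in miR-1825, 6.48 in miR-33b*, 4.62 in miR-302d-3p and 7.67 in cel-miR-67. All 6 miRNA libraries were below cel-miR-67 in both genes, miR-302d-3p among them. In miR-373-3p the ratio of read rates was 0.381 for Parp9 (0.342 to 0.425) and 0.426 for Dtx3l (0.380 to 0.476), with log2 changes of -1.24 and -1.02. Parp14, a mono-ADP-ribosyltransferase, ranged from 3.29 RPKM in miR-199a-3p to 6.12 in miR-33b* beside 6.08 in cel-miR-67.

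Antigen processing members were low. Tap1, a subunit of the peptide transporter, was at 1.08 to 1.57 RPKM in the 6 miRNA libraries and 1.61 in cel-miR-67. The immunoproteasome subunits Psmb8 and Psmb9 stood at 0.109 to 0.558 and 0.296 to 0.644 RPKM beside 0.420 and 0.587 in cel-miR-67, while the constitutive subunits that they replace, Psmb5 and Psmb6, stood between 35.3 and 144.7 RPKM in all 7 libraries. Psmb10, the immunoproteasome subunit outside the members, ranged from 4.08 to 6.30 RPKM in the 6 miRNA libraries beside 5.40 in cel-miR-67, and its constitutive counterpart Psmb7 from 68.5 to 94.2 beside 78.1.

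**Figure D3:**
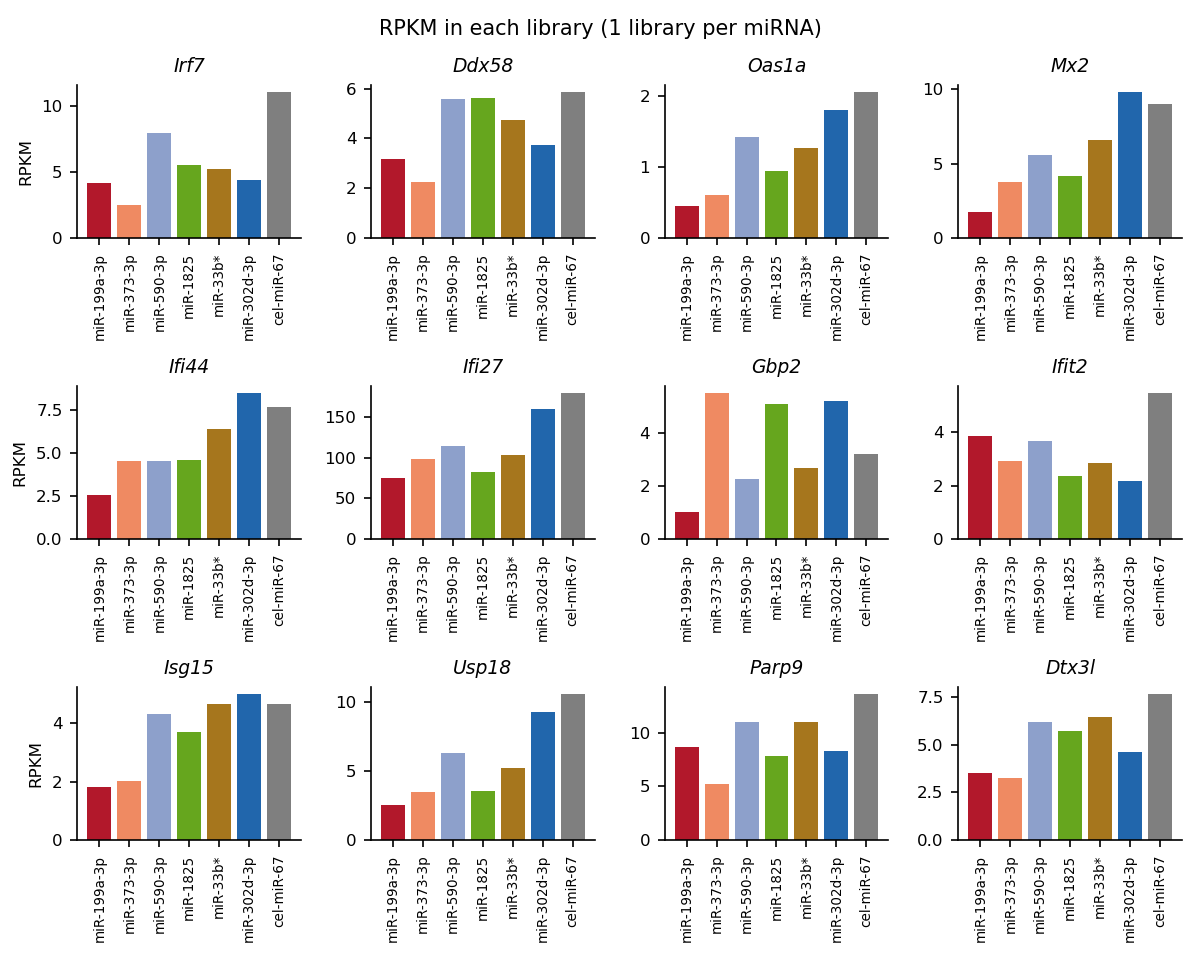
RPKM (y axis, from 0) in the 7 libraries of the 12 members that were at least 2-fold lower than cel-miR-67 in the library of miR-199a-3p, miR-373-3p or miR-302d-3p; each bar is 1 library. In Mx2, Ifi44, Ifi27, Isg15, Usp18 and Oas1a the miR-302d-3p bar is near the cel-miR-67 bar, and in Irf7, Ddx58, Parp9, Dtx3l and Ifit2 it is below it.

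Set directly against the miR-302d-3p library, the members of the miR-199a-3p and miR-373-3p libraries ran from well below it to above it. The highest was Ifit2 in miR-199a-3p, with a log2 difference of 0.61. In miR-199a-3p 6 of the 23 members were at least 2-fold lower than in miR-302d-3p (2.08% of all genes), namely Mx2, Gbp2, Usp18, Ifi44, Isg15 and Ifi27, with log2 differences of -1.98, -1.63, -1.54, -1.41, -1.10 and -1.07. In miR-373-3p 2 of the 23 were (0.284% of all genes), Usp18 at -1.20 and Mx2 at -1.17. No member was 2-fold higher in miR-199a-3p (2.42% of all genes) or in miR-373-3p (0.138%). The 2 comparisons share the miR-302d-3p library. The ratio of read rates for Mx2 was 0.177 in miR-199a-3p over miR-302d-3p (0.150 to 0.207) and 0.386 in miR-373-3p over miR-302d-3p (0.346 to 0.431). The medians of the 23 were -0.32 in miR-199a-3p over miR-302d-3p and -0.34 in miR-373-3p over miR-302d-3p, beside -0.012 and -0.003 for all genes, and 20 and 19 of the 23 were below 0 (51.6% and 50.9% of all genes). Oas1a was within 2-fold on this scale, at -0.94 in miR-199a-3p and -0.80 in miR-373-3p, with a ratio of read rates of 0.254 in miR-199a-3p over miR-302d-3p (0.172 to 0.364). Ifih1 was at -0.54 in miR-199a-3p, and Isg15 at -0.98 in miR-373-3p. With a pseudocount of 5 the counts past 2-fold were 2 in miR-199a-3p and 0 in miR-373-3p, and the shares of all genes for that setting are not given here. Ifi27 in miR-199a-3p was at -0.92 with libraries scaled to the same total.

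Irf7, Ddx58, Dtx3l and Parp9 were lower than in miR-302d-3p in the miR-373-3p library and differed less from it in miR-199a-3p. Irf7 differed from miR-302d-3p by -0.05 in miR-199a-3p and by -0.64 in miR-373-3p, with ratios of read rates of 0.955 (0.799 to 1.14) and 0.560 (0.457 to 0.684). For Parp9 the differences were 0.05 in miR-199a-3p and -0.59 in miR-373-3p, for Ddx58 -0.18 and -0.55, and for Dtx3l -0.32 and -0.40. Ifit2 was higher than in miR-302d-3p in both, by 0.61 in miR-199a-3p and 0.30 in miR-373-3p. Between miR-199a-3p and miR-373-3p themselves, Gbp2 was the member past 2-fold (log2 difference -1.70, ratio of read rates 0.183, interval 0.140 to 0.237; 1.65% of all genes were 2-fold lower and 1.82% 2-fold higher). The median difference of the 23 was -0.09, and 15 of them were below 0 (50.2% of all genes).

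**Figure D4:**
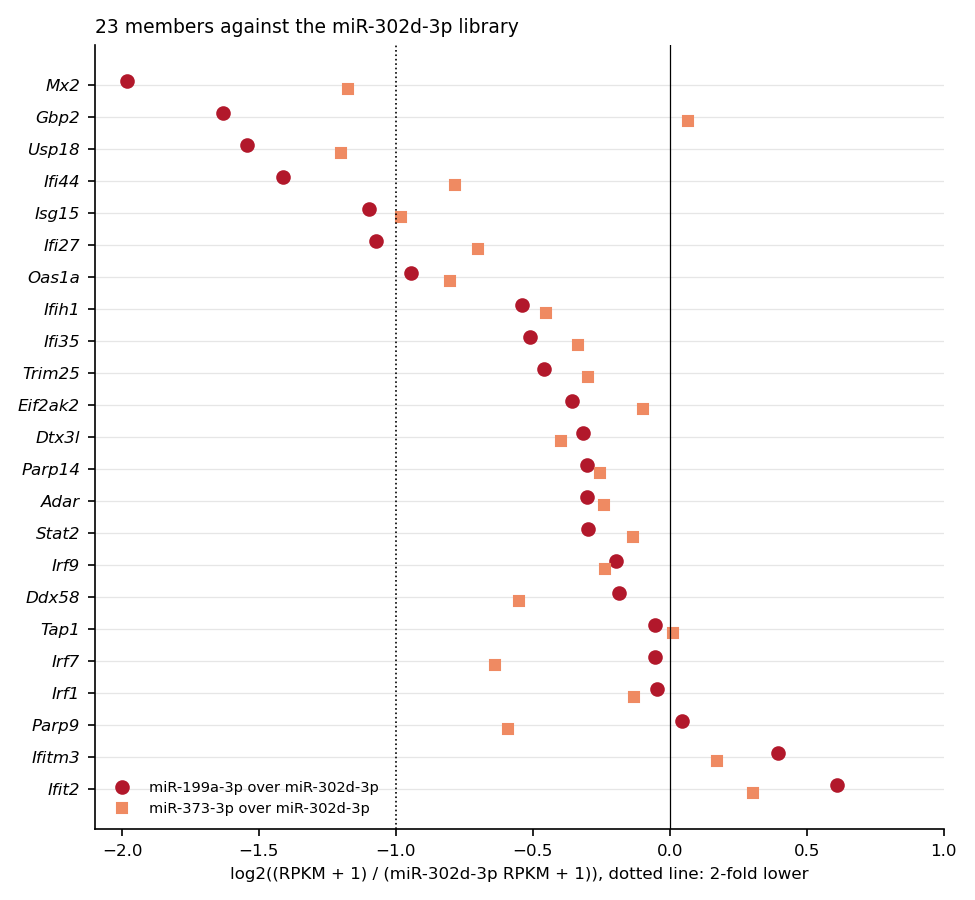
Log2 difference (x axis, RPKM + 1) from the miR-302d-3p library of the 23 members over 1 RPKM, in miR-199a-3p (circles) and miR-373-3p (squares); the dotted line marks 2-fold lower. Mx2 is the farthest to the left at -1.98 in miR-199a-3p, and Ifit2 the farthest to the right at 0.61.

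Summed over the 35 members, the RPKM came to 202 in miR-199a-3p, 228 in miR-373-3p, 289 in miR-590-3p, 246 in miR-1825, 283 in miR-33b*, 328 in miR-302d-3p and 389 in cel-miR-67. Ifi27 supplies much of these sums. Without it they were 127 in miR-199a-3p, 130.2 in miR-373-3p, 174 in miR-590-3p, 164 in miR-1825, 180.2 in miR-33b*, 168 in miR-302d-3p and 209 in cel-miR-67. The 2 lowest libraries and the highest were the same in both sums, while miR-302d-3p stood above the other miRNA libraries only with Ifi27 included.

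Among the 27 listed members with a promoter entry, those with and without a response element-like match were both lower in the miR-199a-3p library. Mx2, Usp18, Isg15, Ddx58 and Ifit2, each 2-fold lower in at least 1 library, had no entry and are in neither group, nor are Dhx58, Adar and Rtp4. Both groups hold members under 1 RPKM, whose differences the log2 scale understates. Whether the groups differ was not tested. The median log2 change there was -0.56 for the 16 listed members with a match and -0.31 for the 11 without, and it was -0.46 and -0.35 in miR-373-3p, -0.24 and -0.14 in miR-590-3p and -0.20 and -0.18 in miR-302d-3p. In miR-1825 and miR-33b* these medians lay on opposite sides of 0, at -0.30 with a match and 0.04 without in miR-1825, and at -0.20 with and 0.03 without in miR-33b*. Of the 16 with a match, 16 were below cel-miR-67 in miR-199a-3p, and of the 11 without, 10 were. Of all 17141 genes, those under 1 RPKM included, 50.9% were below cel-miR-67 in that library. The 300-base promoters of Parp9 and Ifi35 hold no match, and that of Eif2ak2, which differed less than Irf7, does.

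Upstream parts of the pathway were near the cel-miR-67 level. The medians of the 6 receptor genes over 1 RPKM were 0.01 in miR-199a-3p, -0.20 in miR-373-3p and -0.27 in miR-302d-3p, and no gene of that list was past 2-fold in any library. Of the interferon genes asked for, Ifnk had a row, listed at 0 to 0.126 RPKM. The receptor chain Ifnar1 ranged from 9.31 to 12.1 RPKM in the 6 miRNA libraries beside 11.6 in cel-miR-67, and Ifnar2 from 8.56 to 13.6 beside 11.8. Mavs, the adaptor of RIG-I and MDA5 on mitochondria, ranged from 3.43 to 4.32 RPKM beside 4.06, and Irf3 from 26.3 to 35.2 beside 31.7. None of the 9 adaptors and kinases and of the 8 JAK-STAT genes over 1 RPKM was past 2-fold in any library. These counts of 0 are near the shares of all genes, which were 0.762% to 2.11% lower and 1.04% to 2.00% higher by library. With libraries scaled to the same total, the receptor medians were 0.47 in miR-199a-3p, 0.04 in miR-373-3p and 0.03 in miR-302d-3p. Those of all genes were then 0.44, 0.23 and 0.31.

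A list of other interferon-induced genes, 28 of them over 1 RPKM, had medians of -0.27 in miR-199a-3p, -0.27 in miR-373-3p and -0.11 in miR-302d-3p. The first turned to 0.07 with libraries scaled to the same total, where the median of all genes was 0.44. In miR-199a-3p 3 of the 28 were at least 2-fold lower (1.52% of all genes) and none was so in the other 5 libraries, where 0.762% to 2.11% of all genes were. Cxcl10 was 2-fold higher in miR-1825, 1 of 28 beside 2.00% of all genes. Ifit1, which binds RNA with an uncapped end, was at 0.822 RPKM in miR-199a-3p, 1.77 in miR-373-3p, 2.36 in miR-590-3p, 2.98 in miR-1825, 2.41 in miR-33b*, 3.51 in miR-302d-3p and 4.46 in cel-miR-67. Its order of libraries had miR-199a-3p lowest and cel-miR-67 highest, with a ratio of read rates of 0.184 (0.131 to 0.255, 46 against 209 reads) in miR-199a-3p. Lgals3bp, a secreted glycoprotein, was at 28.8 RPKM in miR-199a-3p, 42.1 in miR-373-3p, 40.8 in miR-590-3p, 42.0 in miR-1825, 50.1 in miR-33b*, 59.7 in miR-302d-3p and 68.0 in cel-miR-67. Trim21, the cytosolic antibody receptor and ubiquitin ligase, was at 2.16 RPKM in miR-199a-3p, 3.16 in miR-373-3p, 4.10 to 4.25 in the other 4 miRNA libraries and 5.71 in cel-miR-67. Cxcl10, a chemokine, went the other way in miR-1825: it was at 0.913 RPKM in miR-199a-3p, 1.18 in miR-373-3p, 2.53 in miR-590-3p, 5.00 in miR-1825, 2.40 in miR-33b*, 1.55 in miR-302d-3p and 1.17 in cel-miR-67. Its ratio of read rates in miR-1825 was 4.29 (2.88 to 6.57, 152 against 30 reads).

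Antigen presentation genes had another order of libraries than the members. Of the 10 over 1 RPKM, 1 was past 2-fold, lower in miR-373-3p (1.87% of all genes) and in miR-302d-3p (2.11%). This was B2m, the light chain of class I molecules. It was at 86.6 RPKM in miR-199a-3p, 54.3 in miR-373-3p, 94.3 in miR-590-3p, 75.9 in miR-1825, 75.5 in miR-33b*, 52.2 in miR-302d-3p and 115 in cel-miR-67. The 2 lowest libraries were miR-302d-3p and miR-373-3p, and their ratios of read rates were 0.453 (0.433 to 0.474) and 0.471 (0.450 to 0.493). At a limit of 1.5-fold, 4 of the 10 were lower in miR-373-3p (809 of all 12330 genes) and 3 in miR-302d-3p (902). The list's medians were -0.18 in miR-199a-3p, -0.39 in miR-373-3p and -0.36 in miR-302d-3p. The first was 0.23 with libraries scaled to the same total, where the median of all genes was 0.44.

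**Figure D5:**
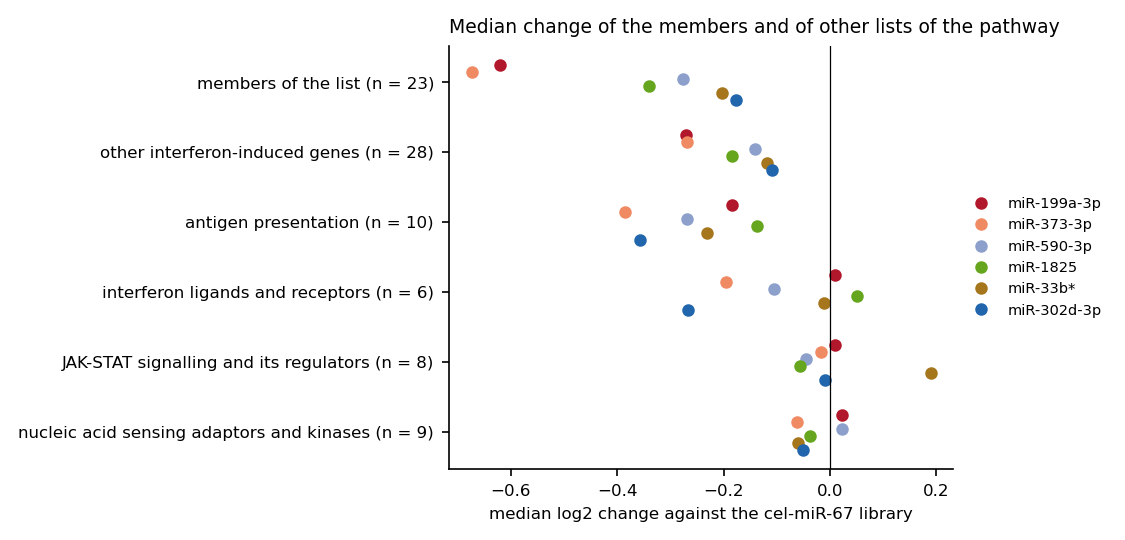
Median log2 change against the cel-miR-67 library (x axis) of the 23 members and of 5 other lists of the pathway, with 1 point per miRNA library; n is the number of genes over 1 RPKM. The members' medians in miR-199a-3p and miR-373-3p (-0.62 and -0.67) lie farthest from 0. With libraries scaled to the same total they are -0.21 and -0.47. The receptor, antigen presentation and other interferon-induced medians of miR-199a-3p are then above 0, as is that of all genes (0.44).

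Non-muscle cells can also express interferon-induced genes, so markers of other cell types are given. The RPKM of 13 macrophage and leukocyte markers summed to 20.2 in miR-199a-3p, 18.0 in miR-373-3p, 16.2 in miR-590-3p, 17.0 in miR-1825, 15.3 in miR-33b*, 12.7 in miR-302d-3p and 21.4 in cel-miR-67. Lyz2, the macrophage lysozyme, took 6.89 RPKM of the sum in miR-199a-3p, 2.20 in miR-302d-3p and 6.93 in cel-miR-67. Without it the 12 other markers summed to 13.3 in miR-199a-3p, 13.9 in miR-373-3p, 10.6 in miR-590-3p, 11.7 in miR-1825, 9.69 in miR-33b*, 10.5 in miR-302d-3p and 14.5 in cel-miR-67. The leukocyte marker Ptprc was at 0.688 RPKM in miR-199a-3p and 0.987 in cel-miR-67. Of 11 lymphocyte and dendritic cell markers 4 had a row, with sums of 1.16 to 2.65 RPKM in the 6 miRNA libraries and 1.85 in cel-miR-67, and Flt3 was listed at 0 in miR-199a-3p and miR-590-3p. The 7 endothelial markers with a row summed to 14.0 to 17.5 RPKM in the miRNA libraries and 22.3 in cel-miR-67. Eng supplied 8.60 to 12.4 RPKM of the sums in the miRNA libraries and 15.6 of that in cel-miR-67. The 9 fibroblast markers summed to 756 RPKM in miR-199a-3p, 639 in miR-373-3p, 521 to 564 in the other 4 miRNA libraries and 738 in cel-miR-67, and the 4 smooth muscle markers to 1157 in miR-199a-3p, 756 to 1042 in the other miRNA libraries and 745 in cel-miR-67. Cnn1 supplied 151 to 298 RPKM of the smooth muscle sums in the miRNA libraries and 88.8 of that in cel-miR-67. The part of these cells in the members' levels was not tested.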

How the data were processed

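The authors deposited RPKM values of 17141 genes for 7 libraries and, per the file headers, a ratio per miRNA library with the cel-miR-67 RPKM as denominator. The submitters' processing notes name STAR 2.7, edgeR and Rnor_6.0, with no role or order; no source names the annotation, strand setting or counter, so overlapping and antisense genes and near copies (Oas1, Ifit, Gbp and Mx genes) are uncertain. The single-sample files held the same RPKM as the series table, and the 117199 ratios compared equalled their quotient within a relative tolerance of 1e-06.

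RPKM was used as deposited. Changes are log2((RPKM + 1)/(cel-miR-67 RPKM + 1)), counted past 2-fold where the mean was 1 RPKM or more (12330 genes). With 1 library per miRNA no test was made. Whole reads were worked out from the RPKM steps (within 0.002 reads, rising to 0.05 for genes with many reads) and gave whole reads in all 7 libraries for 100% of genes. A check of this step recovered 99.6% of 4284 genes exactly. Library sizes worked out in this way ran from 22446204 to 34708142 reads. Intervals of ratios of read rates are exact (Clopper-Pearson, 95%), cover counting error only and carry no pseudocount. In a 2 kb gene, 3 reads equal 0.0432 to 0.0668 RPKM.

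The members, lists and comparisons were chosen with earlier results of these data known. Members given in all 7 libraries were those over 1 RPKM and past 2-fold in miR-199a-3p, miR-373-3p or miR-302d-3p or between these, and those with the lowest or highest change in a library; from the other lists, genes past 2-fold, with Ifnar1, Ifnar2, Mavs, Irf3 and Cxcl10; some genes that this rule would name are not reported here. Promoters and the miRNA came from RefSeq (GRCr8), matched by symbol or name; the build differs from Rnor_6.0, so none of its coordinates refer to the expression table. Alternatives changed the pseudocount, the filter, the scaling, the fold limit, the denominator and the motif. Scripts ran in Python 3.11.15 with pandas 2.3.3, numpy 2.4.6, scipy 1.17.1, numba 0.67.0 and matplotlib 3.10.9.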

Additional observations from a re-analysis of the deposited data

How the results depend on the processing

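No paired analysis was possible because each miRNA has 1 library. The limits are that 1 library stands for each miRNA, that all changes share the cel-miR-67 library, and that low genes have few reads. The members' median stayed below 0 in 8 of 8 alternatives that could move it for miR-199a-3p (-0.701 to -0.206) and for miR-373-3p (-0.746 to -0.304). It did so in 7 of 8 for miR-590-3p, miR-1825 and miR-33b*, and in 6 of 8 for miR-302d-3p. These counts include settings that could not reverse the direction. A changed pseudocount alters the size of this median but cannot take it across 0. Centring on the median of all genes left the all-gene medians at -0.003 to 0.015, as before, so it could hardly do so. Only the changed filter, the other scalings and the changed denominator could take it across 0. The members and libraries were chosen with these values known, so none of these settings is an independent check of the direction. The values that moved by over 1.5 times for a count, by more than the spread set for a median, or across 0 follow, and the cause was not tested. Counts are of members 2-fold lower than cel-miR-67 unless said otherwise. Counts for other lists are summed over the 6 libraries, so a gene is counted in each library where it was called. Except for the members at the 1.5-fold limit, the shares of all genes under these settings are not given here.

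With a pseudocount of 0.1 the counts were 5 in miR-1825 and 2 in miR-33b*, and 4 in miR-373-3p against miR-302d-3p. The JAK-STAT list then had 2 lower and the other interferon-induced genes 11 lower and 2 higher. With a pseudocount of 5 the counts were 3 in miR-199a-3p, 1 in miR-373-3p, 1 in miR-1825 and 0 in miR-302d-3p, and against miR-302d-3p 2 in miR-199a-3p and 0 in miR-373-3p. The other interferon-induced genes then had 1 lower, 0 higher and a miR-199a-3p median of -0.170. With no filter these genes had 9 lower. With a mean of at least 5 RPKM they had 1 lower and 0 higher, and the members' counts were 5 in miR-199a-3p and 1 in miR-302d-3p.

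With libraries scaled to the same RPKM total, the median of all genes moved by 0.436 in miR-199a-3p, 0.232 in miR-373-3p, 0.020 in miR-590-3p, 0.153 in miR-1825, 0.120 in miR-33b* and 0.312 in miR-302d-3p. The members' median was then -0.206 in miR-199a-3p and 0.114 in miR-302d-3p. Their counts were 3 in miR-199a-3p, 3 in miR-373-3p, 1 in miR-1825 and 0 in miR-302d-3p, and 4 in miR-373-3p against miR-302d-3p. Given for miR-199a-3p, then miR-373-3p, then miR-302d-3p, the medians were 0.468, 0.037 and 0.030 for ligands and receptors, 0.469, 0.206 and 0.282 for JAK-STAT genes, 0.482, 0.135 and 0.194 for adaptors and kinases (1 higher), and 0.072, -0.052 and 0.184 for other interferon-induced genes (1 lower). Antigen presentation genes had a miR-199a-3p median of 0.232 and 0 lower. With scaling over nuclear protein-coding genes, the counts were 4 in miR-1825, 1 in miR-33b* and 4 in miR-373-3p against miR-302d-3p. The summed counts lower were then 1 for the JAK-STAT list and 5 for the list of other interferon-induced genes.

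With a limit of 1.5-fold the counts lower, of 23, were 13 in miR-199a-3p, 13 in miR-373-3p, 4 in miR-590-3p, 8 in miR-1825, 4 in miR-33b* and 5 in miR-302d-3p. Of all 12330 genes 684, 809, 430, 780, 681 and 902 were, in the same order. There was 1 member higher in miR-373-3p (595 of all genes) and 1 in miR-1825 (733). Against miR-302d-3p there were 1 higher in miR-199a-3p (1007 of all genes) and 8 lower in miR-373-3p (175). The lists had 4 lower (JAK-STAT), 3 higher (adaptors and kinases), 24 lower and 3 higher (other interferon-induced genes) and 10 lower (antigen presentation). With the mean of the other 5 miRNA libraries as denominator, the members' medians were -0.368 in miR-199a-3p, -0.304 in miR-373-3p, 0.141 in miR-590-3p, 3.9e-04 in miR-1825, 0.178 in miR-33b* and 0.116 in miR-302d-3p. The counts were 2 in miR-199a-3p and 0 in miR-373-3p, miR-1825 and miR-302d-3p, with 1 higher in miR-302d-3p. The other interferon-induced genes had 0 lower and a miR-373-3p median of -0.116, and antigen presentation genes 0 lower and a miR-199a-3p median of 0.259.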

Other observations

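Genes of the same families outside the members showed some of the same values. Among the Oas1 rows, Oas1i was at 1.28 RPKM in miR-199a-3p and 1.37 in miR-373-3p, against 2.87 in cel-miR-67. Oas1k was at 0.278 and 0.263 RPKM in the same libraries, against 0.840 in cel-miR-67. The miR-302d-3p library held 2.82 RPKM of Oas1i and 0.637 of Oas1k. Ifit1lb was at 3.98 RPKM in miR-199a-3p, 6.04 to 12.0 in the other miRNA libraries and 8.60 in cel-miR-67. Slfn13, of the Schlafen family, was at 2.35 to 3.45 RPKM in the 6 miRNA libraries and 2.65 in cel-miR-67.

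Gbp1, chosen after its values were seen, was high in 1 library. It was at 0.415 RPKM in miR-199a-3p, 0.220 in miR-373-3p, 0.621 in miR-590-3p, 0.357 in miR-1825, 0.551 in miR-33b*, 0.146 in miR-302d-3p and 3.25 in cel-miR-67. That is 9 to 27 reads in each of the 6 miRNA libraries and 131 in cel-miR-67. The ratio of read rates was 0.0449 in miR-302d-3p (0.0201 to 0.0878) and 0.191 in miR-590-3p (0.121 to 0.291). Gbp4, chosen in the same way, was at 0.113 RPKM in miR-199a-3p, 0.153 to 1.32 in the other miRNA libraries and 0.437 in cel-miR-67, with miR-199a-3p the lowest as in Gbp2. Reads of guanylate-binding protein genes may be split between near copies.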
